A study of Mus musculus with 13 samples.

Results

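The genes described here are the TCF/LEF transcription factors of the Wnt pathway, their coactivator and 3 feedback genes, measured in sorted mouse thymocytes. The list held 8 genes, chosen by name as Tcf7, Lef1, Tcf7l1, Tcf7l2, Ctnnb1, Axin2, Apcdd1 and Nkd1. A gene was represented by the probe set whose only annotated symbol was that gene. With that rule 7 of the 8 genes were measured, each by 1 probe set, among 19752 genes in all, and no probe set carried Tcf7 as its only symbol. The measured genes lie on chromosomes 3 (Lef1), 6 (Tcf7l1), 19 (Tcf7l2), 9 (Ctnnb1), 11 (Axin2), 18 (Apcdd1) and 8 (Nkd1).

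The study hybridised 13 Affymetrix arrays with RNA from thymus cells of 2-week-old mice that were conditional knockout (cKO) for Sox4 or wild type (WT). V2 cells are immature γδ thymocytes with the Vγ2 receptor chain, sorted as TCRδ+ Vγ2+ HSA-high cells without CD4 or CD8. DP cells are CD4+ CD8+ double positive thymocytes, the main αβ lineage stage of the thymus. By title there were 4 V2 cKO, 4 V2 WT, 3 DP cKO and 2 DP WT arrays, and the sex of every sample was given as mixed. V2 titles were written in 2 styles, V2imm and immV2, each with cKO and WT arrays, and replicate numbers recur between the styles. The sources used here give neither the Cre line, the strain nor the number of mice behind an array, nor if each replicate had mice of its own. A p-value here therefore measures spread between arrays that may be technical replicates.

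Markers of the populations separated the arrays, with 2 exceptions. The summed linear intensity of 6 DP markers (Cd4, Cd8a, Cd8b1, Rag1, Rag2 and Slc7a11) was 996 to 1360 in V2 cKO, 897 to 1005 in V2 WT, 31953 to 35310 in DP cKO and 31241 to 36278 in DP WT. Among the remaining arrays, the one labelled DP cKO replicate 5 had 879, and the one labelled V2 WT replicate 5 (immV2) stood at 35768. For 6 γδ markers (Sox13, Etv5, Maf, Blk, Cpa3 and Il2rb) these arrays had 19735 and 668. Each therefore carried the markers of the other population. Both are shown apart, no array was moved to another group, and comparisons used the other 11 arrays (4 V2 cKO, 3 V2 WT, 2 DP cKO and 2 DP WT). With all 13 arrays as labelled, no member passed the test in any comparison, and neither did any gene between cKO and WT (0%), while 0.0354% of genes passed between V2 and DP in the knockout and 0.0557% in wild type.

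As background, Wnt ligands bind Frizzled receptors and LRP coreceptors and so stop the breakdown of β-catenin, which then enters the nucleus. There it binds TCF/LEF factors, which otherwise recruit Groucho/TLE corepressors, and turns on target genes that include inhibitors of the pathway itself. In the thymus TCF-1, the product of Tcf7, is required for early T cell development and for the survival of double positive cells. Like Sox4, TCF-1 and LEF-1 are HMG box proteins that bind the minor groove of DNA.

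Promoters are shown for Axin2 and Tcf7l2 because these were the members that passed the test between V2 and DP cells in the knockout. Neither passed in wild type. Each window holds the 250 bases before an annotated start, read 5′ to 3′ on the gene's strand, from RefSeq on GRCm38.p6. Capitals mark a match, on either strand, to 1 of 4 motifs. CTTTGAT is a form of the TCF/LEF site, CTTTGAA is another form of it, and CTTTGTT is a further one. AACAAT is the SOX site, which is written ATTGTT on the other strand. The last TCF/LEF form reads AACAAAG on the other strand and so shares its first 5 letters with the SOX motif.
Axin2, chr11:108920099-108920348, plus strand: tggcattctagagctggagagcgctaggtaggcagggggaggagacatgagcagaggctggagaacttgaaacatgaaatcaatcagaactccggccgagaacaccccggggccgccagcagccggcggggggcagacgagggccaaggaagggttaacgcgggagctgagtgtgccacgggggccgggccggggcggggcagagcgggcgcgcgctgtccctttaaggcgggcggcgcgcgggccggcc
Tcf7l2 first start, chr19:55741560-55741809, plus strand: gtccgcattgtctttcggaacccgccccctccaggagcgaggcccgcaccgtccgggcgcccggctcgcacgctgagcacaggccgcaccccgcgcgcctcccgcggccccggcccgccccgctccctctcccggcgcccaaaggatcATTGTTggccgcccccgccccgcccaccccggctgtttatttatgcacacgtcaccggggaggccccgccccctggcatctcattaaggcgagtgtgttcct
Tcf7l2 second start, chr19:55895071-55895320, plus strand: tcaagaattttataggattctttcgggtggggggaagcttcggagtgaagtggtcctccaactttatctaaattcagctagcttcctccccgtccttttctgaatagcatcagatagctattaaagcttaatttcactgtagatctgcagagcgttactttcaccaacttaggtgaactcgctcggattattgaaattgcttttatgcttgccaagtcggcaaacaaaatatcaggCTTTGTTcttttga
The Axin2 window held none of the 4 motifs. The first Tcf7l2 window held the SOX motif, with its bases 102 to 97 before the start, and the second held CTTTGTT, 14 to 8 bases before it. Of 13 windows read for 7 of the 8 listed genes, these were the only matches. Among all 32851 promoter windows of that length, 12% held at least 1 of the TCF/LEF motifs, 5.03% held CTTTGTT and 9.42% held AACAAT. A match is a description of these letters and not evidence of binding.

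Sox4, the targeted gene, was not lower in all knockout arrays. In V2 cKO it had log2 intensities of 8.07 and 9.60 on the V2imm arrays and 8.11 and 8.23 on the immV2 arrays, against 8.71, 8.64 and 9.68 in V2 WT. In DP it had 8.74 and 8.68 in cKO, against 9.37 and 8.55 in WT. The difference cKO minus WT was -0.51 (SE 0.38) in V2 and -0.25 (SE 0.49) in DP, with adjusted p-values of 0.999 and 1 (limma, Benjamini-Hochberg over all genes). The V2 difference was -1.06 (adjusted p = 0.1) without V2 cKO replicate 5 (V2imm) and 0.16 without V2 WT replicate 3 (immV2), and within the immV2 arrays it was -1.51 (SE 0.50), which did not pass. The DP difference was -0.66 without DP WT replicate 5 and 0.16 without DP WT replicate 3. The sources used here do not say where the probe set lies relative to the deleted part, so this gene does not check the labels.

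Levels are given as log2 intensity. Array medians lay between 6.93 and 7.10 and upper quartiles between 8.38 and 8.74. No level is set against that of another gene, because probe sets differ in brightness. The deposited values carry no detection calls, so a background level for the dimmer members is not known. In these bulk samples, fewer cells that express a gene and less RNA per cell cannot be told apart.

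Lef1, which encodes LEF-1, was among the members with higher means in V2 than in DP cells of either genotype. In V2 cKO the V2imm arrays had 12.05 and 11.97 and the immV2 arrays 12.09 and 11.995. In V2 WT the V2imm arrays had 12.32 and 12.35 and the immV2 array 11.88. DP cKO had 11.51 and 11.62, and DP WT had 11.11 and 11.97. The 4 V2 cKO arrays lay close together, the V2 WT arrays split by title style, and the pair of DP WT arrays lay farther apart than any other group. The mean was 12.03 ± 0.05 in V2 cKO (SD, n = 4), 12.19 ± 0.26 in V2 WT (n = 3), 11.56 ± 0.08 in DP cKO and 11.54 ± 0.61 in DP WT (n = 2 each), so that V2 WT was the highest and DP WT the lowest. Means of the same population differed by less than 1 SD of their more variable group.

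Tcf7l1 encodes a TCF factor that mostly represses Wnt targets. V2 cKO had 8.02 and 7.39 on V2imm arrays and 7.07 and 7.25 on immV2 arrays, and V2 WT had 7.62 and 7.48 on V2imm arrays and 7.22 on the immV2 array. DP cKO had 6.90 and 7.10, and DP WT had 7.01 and 7.09. In both V2 genotypes the V2imm arrays were the higher ones, and the V2 cKO range reached down into the DP range. The means were 7.43 ± 0.41 in V2 cKO, 7.44 ± 0.20 in V2 WT, 7.001 ± 0.14 in DP cKO and 7.05 ± 0.06 in DP WT.

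Tcf7l2 encodes the TCF factor best known from intestinal epithelium. V2 cKO had 8.10 and 7.60 on V2imm arrays and 7.68 and 8.24 on immV2 arrays, and V2 WT had 8.09, 8.05 and 7.73. DP cKO had 7.11 and 7.21, and DP WT had 7.26 and 7.47. Every V2 array lay above every DP array, and the lowest V2 array was a V2 cKO array at 7.60. The means were 7.90 ± 0.31 in V2 cKO, 7.96 ± 0.19 in V2 WT, 7.16 ± 0.07 in DP cKO and 7.37 ± 0.15 in DP WT, with DP cKO the lowest group. The neighbouring V2 means differed by less than their spread.

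Ctnnb1 encodes β-catenin. V2 cKO had 9.22 and 10.79 on V2imm arrays and 10.50 and 10.54 on immV2 arrays, and V2 WT had 10.58, 10.46 and 10.74. DP cKO had 10.40 and 10.68, and DP WT had 10.49 and 10.83. All but 1 array lay within 10.40 to 10.83, and the exception was V2 cKO replicate 4 (V2imm) at 9.22. That array also had the lowest upper quartile, and it was the lowest V2 cKO array for 30.5% of all genes and the highest for 50.3%.

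Axin2 encodes a scaffold of the β-catenin destruction complex and is a widely used readout of Wnt activity. V2 cKO had 7.80 and 8.23 on V2imm arrays and 8.33 and 8.46 on immV2 arrays, and V2 WT had 7.96, 7.95 and 7.92. DP cKO had 7.59 and 7.45, and DP WT had 7.68 and 7.98. V2 cKO held both the highest arrays and, among V2 arrays, the lowest one, while the V2 WT arrays lay between 7.92 and 7.96. Means ran 8.20 ± 0.29 in V2 cKO, 7.94 ± 0.02 in V2 WT, 7.52 ± 0.10 in DP cKO and 7.83 ± 0.22 in DP WT.

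Apcdd1 and Nkd1 encode inhibitors, the first at the cell membrane and the second through Dishevelled. Apcdd1 had 7.77, 8.45, 7.70 and 7.60 in V2 cKO and 7.82, 7.89 and 7.67 in V2 WT, with 7.64 and 7.90 in DP cKO and 7.52 and 7.78 in DP WT. V2 cKO replicate 5 (V2imm) was the highest, and the other arrays of the 4 groups overlapped. Nkd1 had 7.55, 7.37, 7.15 and 7.20 in V2 cKO and 7.22, 7.51 and 7.39 in V2 WT, with 7.55 and 7.37 in DP cKO and 7.52 and 7.46 in DP WT. Its 4 groups overlapped as well.

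**Figure D1:**
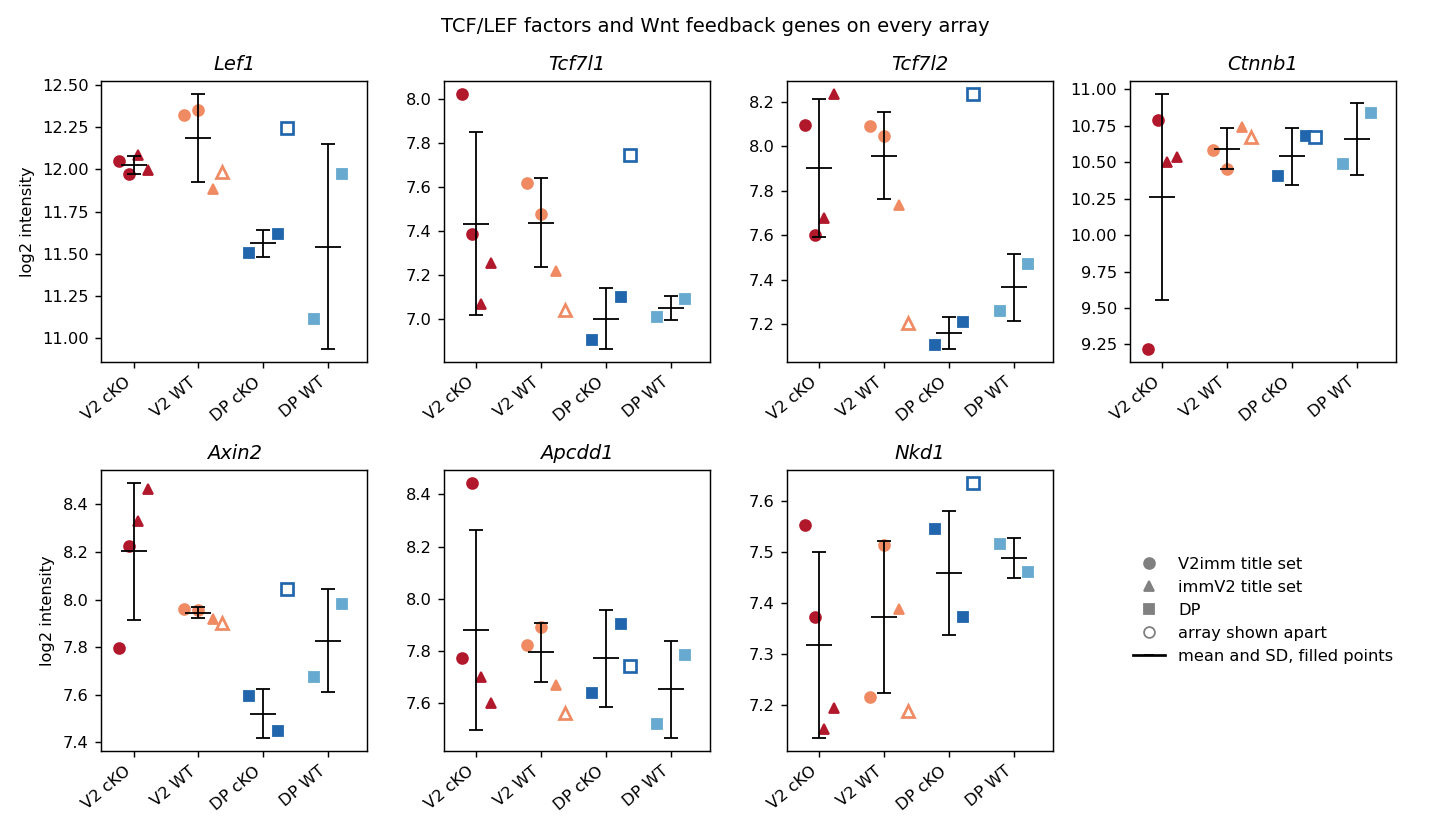
Log2 intensity (y axes, each with its own range) of the 7 measured genes on every array, by group (x axes), with filled points for the 11 arrays compared, their mean and SD in black, and open points for the 2 arrays shown apart. Tcf7l2 lies at 7.60 or above on every filled V2 point and at 7.47 or below on every filled DP point, and 1 V2 cKO array of Ctnnb1 lies at 9.22.

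The knockout was compared with wild type within each population. In V2 cells no member passed the test, and for all 7 the cKO and WT arrays overlapped. The differences cKO minus WT were -0.13 for Lef1 (SE 0.20, 95% interval -0.57 to 0.30), 0.07 for Tcf7l1 (SE 0.16, -0.27 to 0.41) and -0.04 for Tcf7l2 (SE 0.18, -0.43 to 0.34). For the coactivator Ctnnb1 the difference was -0.40 (SE 0.29, -1.03 to 0.23). Among the feedback genes it was 0.22 for Axin2 (SE 0.16, -0.12 to 0.57), 0.14 for Apcdd1 (SE 0.17, -0.23 to 0.52) and -0.03 for Nkd1 (SE 0.13, -0.32 to 0.26). All 7 adjusted p-values were 0.999 with limma. Over all 19752 genes 0 were called (0%), with 757 (3.83%) at an unadjusted p under 0.05, and 3.45% of genes had groups that did not overlap. The median difference was -0.03 over the members and 0.01 over all genes. These intervals reach 0.57 for Axin2, -0.57 for Lef1 and -1.03 for Ctnnb1, so shifts of those sizes are not excluded.

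Several of these values moved with single arrays or with the title style. The Ctnnb1 difference was 0.02 (SE 0.17) without V2 cKO replicate 4 (V2imm) and -0.76 (SE 0.23) without V2 cKO replicate 5 (V2imm). The Apcdd1 difference was -0.05 without V2 cKO replicate 5 (V2imm). Within the V2imm arrays the Axin2 difference was 0.05 (SE 0.20), and within the immV2 arrays it was 0.48 (SE 0.25). Lef1 had -0.33 (SE 0.26) within V2imm and 0.16 (SE 0.32) within immV2. Tcf7l2 had -0.22 (SE 0.23) and 0.22 (SE 0.28) in that order of styles. The difference between the styles was not tested, and the immV2 style had 1 WT array.

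Other markers moved with the genotype or the style in V2 cells. The sum of the γδ markers was 9734 to 13329 in V2 cKO and 16448 to 18034 in V2 WT. The sum of 12 macrophage and dendritic cell markers was 1524 to 6139 on the V2imm arrays and 890 to 1291 on the immV2 arrays, with 961 to 1064 in DP cells. The sum of 5 B cell markers was 1651 and 1625 on the immV2 cKO arrays, against 796 on the immV2 WT array, and 733 and 893 on the V2imm cKO arrays, against 706 and 669 on the V2imm WT arrays. Cd24a, which encodes the sort marker HSA, was at 10.38 and 9.46 on the immV2 cKO arrays, against 11.67 on the immV2 WT array, and at 12.31 and 11.61 on the V2imm cKO arrays, against 12.21 and 12.02 on the V2imm WT arrays. The V2imm groups overlapped for Cd24a, and both immV2 cKO arrays lay below all other V2 arrays. Their part in the members' values was not tested.

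**Figure D2:**
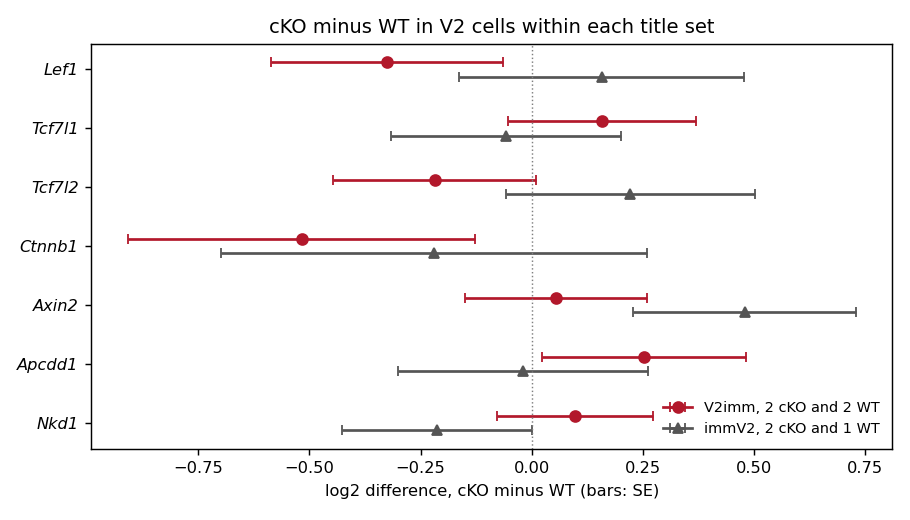
Difference cKO minus WT in V2 cells (x axis, log2; bars are SE) for the 7 genes, with circles for the V2imm arrays (2 cKO and 2 WT) and triangles for the immV2 arrays (2 cKO and 1 WT). Ctnnb1 and Axin2 lie on 1 side of 0 in both styles, the other 5 genes lie on opposite sides, and Axin2 lies at 0.05 and 0.48.

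In DP cells no member passed the test either. Tcf7l2 and Axin2 had both cKO arrays below both WT arrays, 2 of 7 members, where 14% of all genes had that arrangement and 29.8% had groups that did not overlap in either direction. The Axin2 difference was -0.31 (SE 0.21, 95% interval -0.75 to 0.14) and the Tcf7l2 difference -0.21 (SE 0.23, -0.70 to 0.29). The other differences were 0.02 for Lef1 (SE 0.26), -0.05 for Tcf7l1 (SE 0.20), -0.12 for Ctnnb1 (SE 0.38), 0.12 for Apcdd1 (SE 0.22) and -0.03 for Nkd1 (SE 0.17), with an adjusted p of 1 for all 7 with limma. Over all genes 5 were called (0.0253%). In DP cells the B cell marker sum was 1404 and 1510 in cKO, against 997 and 1009 in WT, and Cd24a was at 10.89 and 10.93 in cKO, against 11.97 and 12.27 in WT. The groups did not overlap for either, and their part in the members' values was not tested. The Lef1 value rests on the pair of DP WT arrays, and it was -0.41 without DP WT replicate 3 and 0.45 without DP WT replicate 5. With the array labelled DP cKO replicate 5 kept in its group and all 13 arrays used, Tcf7l2 was at 0.15 and Axin2 at -0.13.

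The knockout's effect was then compared between the populations. Axin2 had the largest estimate of the 7, with V2 minus DP at 0.53 (SE 0.26, 95% interval -0.03 to 1.10, unadjusted p = 0.0626 and adjusted p = 1 with limma). The other 6 estimates lay between -0.28 (Ctnnb1, SE 0.48) and 0.16 (Tcf7l2, SE 0.29). Over all genes 0 were called (0%), with 372 (1.88%) at an unadjusted p under 0.05. For Axin2 the estimate was 0.36 to 0.68 when single arrays were left out.

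V2 cells were then compared with DP cells of the same genotype. In the knockout Tcf7l2 and Axin2 were higher in V2 cells, 2 of 7 members, where 5.45% of all genes were called and 3.5% were called higher. Tcf7l2 was 1.67-fold higher (log2 difference 0.74, SE 0.20, 95% interval 0.31 to 1.17, adjusted p = 0.0481) and Axin2 1.61-fold higher (0.68, SE 0.18, 0.30 to 1.07, adjusted p = 0.0421). Lef1 had a difference of 0.46 (SE 0.23, adjusted p = 0.389) and Tcf7l1 one of 0.43 (SE 0.18, adjusted p = 0.257), and neither passed. Ctnnb1 (-0.28, SE 0.33), Apcdd1 (0.11, SE 0.19) and Nkd1 (-0.14, SE 0.15) did not pass. All V2 cKO arrays lay above both DP cKO arrays for 3 members, Lef1, Tcf7l2 and Axin2, an arrangement shown by 9.8% of all genes. The median over the members was 0.43, and over all genes -0.01.

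Both calls were close to the threshold. With 1 array left out, Axin2 was called in 4 of 11 fits and Tcf7l2 in 1 of 11. Leaving out a WT array did not move either difference and altered only its SE and adjusted p. The Axin2 difference ranged from 0.61 to 0.81 and its adjusted p from 0.00425, without V2 cKO replicate 4 (V2imm), to 0.349, without DP cKO replicate 4. The Axin2 call was lost without V2 WT replicate 4 or 5 (V2imm), V2 cKO replicate 5 (V2imm), DP cKO replicate 3 or 4, or V2 cKO replicate 3 or 4 (immV2). The Tcf7l2 difference ranged from 0.59 to 0.88, and the call was kept only without V2 cKO replicate 5 (V2imm), with an adjusted p of 0.00746 there and of 0.054 to 0.38 otherwise. With all 13 arrays as labelled the differences were 0.39 for Tcf7l2 (adjusted p = 0.782) and 0.51 for Axin2 (adjusted p = 0.464).

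In wild type no member passed the test, while 4.87% of all genes did. Lef1 had a difference V2 minus DP of 0.61 (SE 0.24, 95% interval 0.10 to 1.13, adjusted p = 0.228) and Tcf7l2 one of 0.58 (SE 0.21, 0.12 to 1.04, adjusted p = 0.188). Tcf7l1 was at 0.31 (SE 0.19), Axin2 at 0.15 (SE 0.19), Apcdd1 at 0.08 (SE 0.21), Ctnnb1 at -0.00 (SE 0.35) and Nkd1 at -0.14 (SE 0.16). The V2 arrays lay above both DP arrays for Tcf7l1 and Tcf7l2, 2 of 7 members, against 14.4% of all genes. The median over the members was 0.15, and over all genes -0.02. Lef1 depended on which DP WT array was used, since its difference was 1.04 (adjusted p = 0.0207) without DP WT replicate 5 and 0.19 without DP WT replicate 3.

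The V2 minus DP difference averaged over both genotypes, a setting chosen after seeing the data, called Tcf7l2 (0.66, SE 0.15, adjusted p = 0.00908), where 10.7% of all genes were called and 6.81% were called higher. Lef1 was at 0.54 (SE 0.17, adjusted p = 0.0556) and Axin2 at 0.42 (SE 0.13, adjusted p = 0.0611), and neither passed. For Axin2 the estimates in the knockout and in wild type were 0.68 and 0.15, and the difference between them is the estimate of 0.53 given above.

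**Figure D3:**
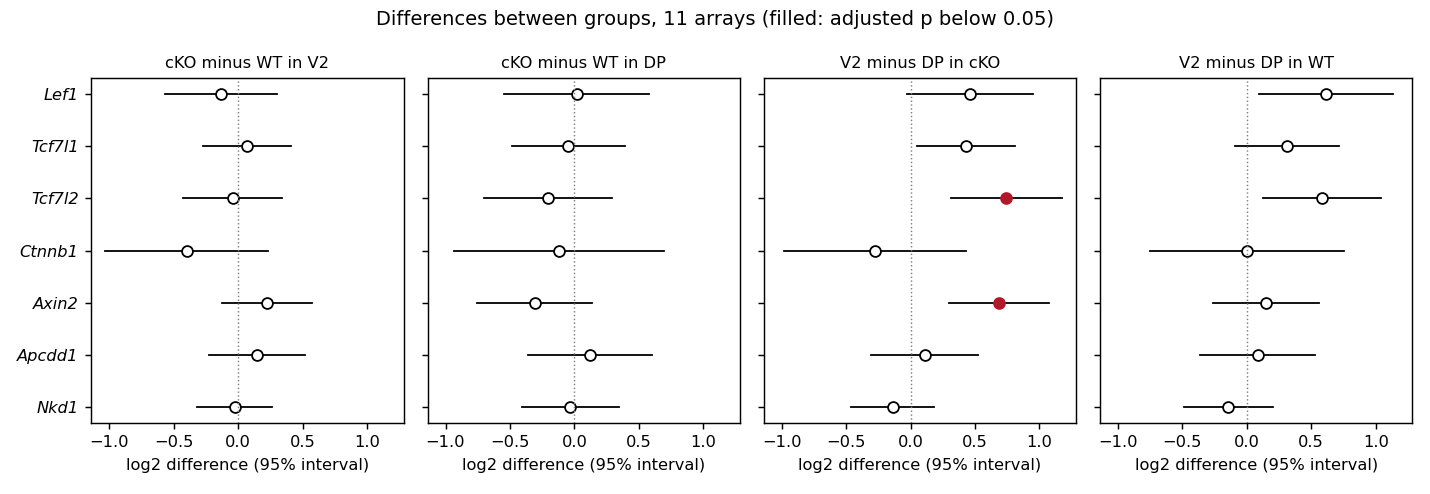
Log2 differences (x axes) with 95% intervals for the 7 genes in 4 comparisons, from the fit of 11 arrays, with filled points where the adjusted p was below 0.05. Tcf7l2 at 0.74 and Axin2 at 0.68 in the knockout are the filled points, and for Lef1 and Tcf7l2 in wild type the intervals lie above 0 although the adjusted p did not pass.

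The 2 arrays shown apart were set beside the V2 and DP ranges of the members. On the array labelled DP cKO replicate 5, Tcf7l2 was at 8.23, Lef1 at 12.25, Tcf7l1 at 7.75 and Axin2 at 8.04, all above the 4 DP arrays. For 6 of the 7 members this array lay within the range of the V2 arrays, and for 2 within that of the DP arrays. On the array labelled V2 WT replicate 5 (immV2), Tcf7l2 was at 7.21, below all other V2 arrays and within the DP range. Lef1 was at 11.98 there, within the V2 range and above all DP arrays. That array lay within the DP range for 5 members and within the V2 range for 4. The ranges overlap for several members, so these counts do not add up to 7.

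Other genes of the Wnt pathway were grouped by role, with 132 of 133 measured, in lists that leave out the members. In no list was a gene called between cKO and WT in either population. Between V2 and DP cells, 5 genes were higher and 4 lower in the knockout, and 5 were higher and 3 lower in wild type. Over all genes 3.5% were called higher and 1.94% lower in the knockout, and 3.2% higher and 1.67% lower in wild type, so the pathway as a whole stood near the background. The median difference over the pathway was -0.07 in the knockout and -0.02 in wild type.

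None of 19 Wnt ligands was called between V2 and DP cells in either genotype. Their median difference was -0.08 in the knockout and -0.13 in wild type, and the largest was that of Wnt8b in wild type (-0.43, SE 0.20, adjusted p = 0.352). Of 18 receptors and coreceptors, 1 was lower in V2 cells in the knockout and none was called in wild type. This was Fzd10, a Frizzled receptor, with 6.52, 6.61, 6.68 and 6.71 in V2 cKO, against 7.19 and 7.29 in DP cKO (log2 difference -0.61, SE 0.13, adjusted p = 0.0126). Its V2 cKO values lay below the array medians of 6.93 to 7.10, and its background level is not known. Its call was lost without DP cKO replicate 3 (adjusted p = 0.0951) or 4 (adjusted p = 0.173). In wild type it was at -0.48 (SE 0.14, adjusted p = 0.073). Fzd3, another receptor, was at 0.49 (SE 0.14, adjusted p = 0.0754) in wild type.

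Of 21 R-spondins and extracellular or membrane inhibitors, 1 was lower in V2 cells in both genotypes. Kremen1, a receptor for Dickkopf inhibitors, had 9.10, 9.60, 9.47 and 9.60 in V2 cKO, against 11.05 and 11.07 in DP cKO. In wild type it had 9.48, 9.55 and 9.61 in V2 cells, against 10.80 and 11.001 in DP cells. The groups did not overlap, and the differences were -1.62 (SE 0.19, adjusted p = 0.00013) in the knockout and -1.33 (SE 0.20, adjusted p = 0.00108) in wild type. Both calls were kept with any 1 of the 11 arrays left out and lost with all 13 as labelled (adjusted p 0.464 and 0.616). The arrays labelled DP cKO replicate 5 and V2 WT replicate 5 (immV2) had 9.67 and 11.25.

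Of 30 cytoplasmic regulators of β-catenin, 1 was lower in V2 cells in wild type and none was called in the knockout. Dact1, a Dishevelled binding protein, had 5.81, 6.03 and 5.65 in V2 WT, against 6.73 and 6.41 in DP WT (-0.80, SE 0.18, adjusted p = 0.0214). Its V2 WT values were dim, near the lower quartiles of the arrays, which lay between 5.72 and 6.09. The call was lost without V2 WT replicate 4 or 5 (V2imm), V2 WT replicate 3 (immV2) or DP WT replicate 3, with adjusted p-values of 0.0551 to 0.28. Csnk1e, a casein kinase that acts on Dishevelled, had 9.62, 10.73, 9.70 and 9.79 in V2 cKO and 10.58, 10.52 and 10.58 in V2 WT. In DP cells it had 10.27 and 10.15 in cKO, against 11.09 and 11.04 in WT. Its cKO minus WT difference of -0.56 (SE 0.23) in V2 and -0.86 (SE 0.30) in DP did not pass (adjusted p = 0.999 and 1). Under alternative settings of the fit it passed in 1 of 25 in V2 and in 0 of 23 in DP.

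The nuclear partners of TCF/LEF factors held 6 of the 9 calls of these lists in the knockout and 4 of the 8 in wild type. Of 26 genes, 4 were higher and 2 lower in V2 than in DP cells in the knockout, and 3 were higher and 1 lower in wild type. Over all genes, 5.45% were called in the knockout and 4.87% in wild type. The list was chosen with earlier results of these data known, and its share was not tested against that of all genes. The list's median difference was -0.02 in the knockout and 0.07 in wild type, near those of all genes (-0.01 and -0.02). Bcl9 and Bcl9l encode the adaptors that link β-catenin to Pygopus. Bcl9 had 10.16, 10.44, 9.55 and 9.75 in V2 cKO, against 8.49 and 8.48 in DP cKO, a difference of 1.49 (SE 0.24, adjusted p = 0.00172). In wild type it had 10.59, 10.55 and 10.29 in V2 cells, against 8.74 and 9.65 in DP cells, a difference of 1.20 (SE 0.25, adjusted p = 0.0128). The wild type call was lost without DP WT replicate 3 (0.75, adjusted p = 0.179) or V2 WT replicate 3 (immV2) (adjusted p = 0.121).

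Bcl9l was higher by 0.86 in the knockout (SE 0.20, adjusted p = 0.0252) and by 0.94 in wild type (SE 0.22, adjusted p = 0.0239). Each of its calls was lost in 4 of 11 fits with an array left out. These were the fits without DP cKO replicate 3 or 4 or V2 cKO replicate 3 or 4 (immV2) in the knockout, and without V2 WT replicate 4 or 5 (V2imm) or DP WT replicate 3 or 5 in wild type. Tle4, a Groucho/TLE corepressor that binds TCF/LEF factors, had 9.72, 9.43, 9.60 and 9.85 in V2 cKO, against 7.94 and 8.31 in DP cKO. In wild type it had 9.76, 9.41 and 9.48 in V2 cells, against 8.12 and 8.90 in DP cells. The differences were 1.53 (SE 0.23, adjusted p = 0.00134) and 1.05 (SE 0.25, adjusted p = 0.0274). In wild type the call was lost without V2 WT replicate 4 or 5 (V2imm), V2 WT replicate 3 (immV2) or DP WT replicate 3, where the difference was 0.66.

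Hipk2, a kinase that phosphorylates TCF factors, was higher in V2 cells in the knockout, with 9.94, 10.18, 8.89 and 9.73 in V2 cKO, against 7.67 and 8.38 in DP cKO (1.66, SE 0.32, adjusted p = 0.00663). The call was lost without DP cKO replicate 3 (1.30, adjusted p = 0.162). Tle6, a shorter relative of the TLE corepressors, was lower in V2 cKO than in DP cKO cells (-0.69, SE 0.16, adjusted p = 0.0251). Its call was lost without DP cKO replicate 3 (adjusted p = 0.47) or V2 cKO replicate 4 (immV2) (adjusted p = 0.0844).

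Jup, which encodes plakoglobin, a relative of β-catenin, was lower in V2 cells in both genotypes. V2 cKO had 8.48 and 8.84 on V2imm arrays and 6.85 and 7.24 on immV2 arrays, against 8.96 and 9.99 in DP cKO. V2 WT had 8.83, 8.58 and 8.96, against 10.27 and 10.70 in DP WT. The differences were -1.62 (SE 0.39, adjusted p = 0.0265) in the knockout and -1.84 (SE 0.41, adjusted p = 0.0202) in wild type. Leaving out single arrays ended the call in 3 of 11 fits in the knockout (DP cKO replicate 4, and V2 cKO replicate 3 or 4 of immV2) and in 4 of 11 in wild type (V2 WT replicate 4 or 5 of V2imm, and DP WT replicate 3 or 5). The low immV2 cKO arrays gave Jup a cKO minus WT difference of -0.79 (SE 0.35, adjusted p = 0.999) in V2, and in DP it was -1.01 (SE 0.45, adjusted p = 1).

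**Figure D4:**
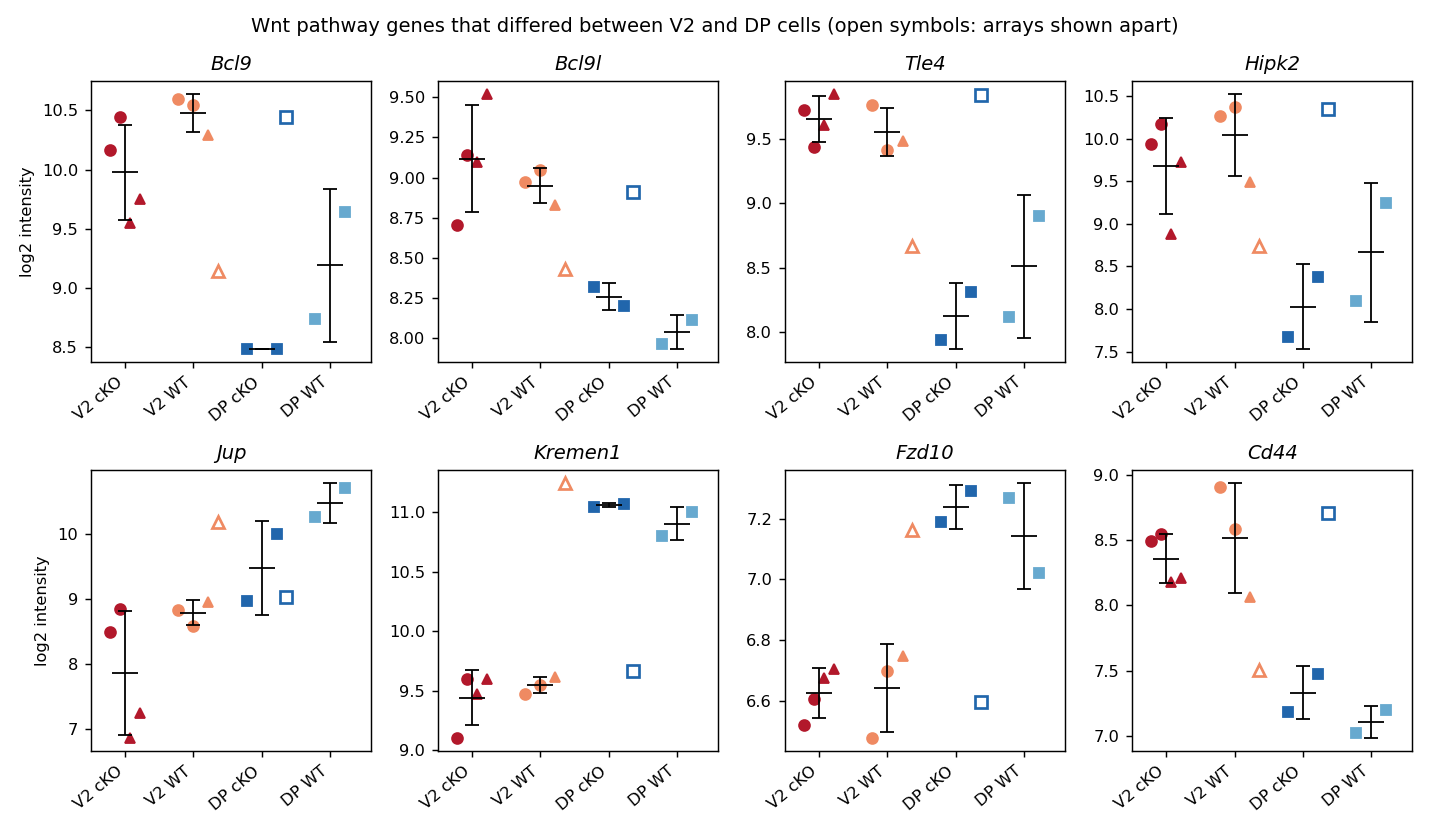
Log2 intensity (y axes, each with its own range) of 8 Wnt pathway genes by group (x axes), with circles for V2imm, triangles for immV2 and squares for DP arrays, mean and SD in black, and open symbols for the arrays shown apart. Bcl9, Bcl9l, Tle4 and Cd44 have their V2 groups above the DP groups and Kremen1 below, and the open symbols lie nearer the other population for Kremen1.

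Of 24 measured genes known as Wnt targets in other tissues, 1 was higher in V2 cells in the knockout and 2 in wild type. Cd44, an adhesion receptor, was higher by 1.03 in the knockout (SE 0.17, adjusted p = 0.00205) and by 1.34 in wild type (SE 0.18, adjusted p = 0.000475). The call in the knockout was lost without DP cKO replicate 3 (adjusted p = 0.0702). Myc, a growth regulator, had 10.46, 10.14, 9.76 and 9.82 in V2 cKO, against 9.59 and 9.65 in DP cKO, and did not pass (0.42, SE 0.19, adjusted p = 0.322). In wild type it was higher in V2 cells, with 10.60, 10.25 and 9.98 in V2 WT, against 8.52 and 8.89 in DP WT (1.49, SE 0.20, adjusted p = 0.00052). Its cKO minus WT difference in DP cells was 0.91 (SE 0.22, adjusted p = 0.515) and did not pass. Both cKO arrays lay above both WT arrays, where 29.8% of all genes had groups that did not overlap in either direction. The difference of the knockout's effect between populations was -1.07 for Myc (SE 0.28) and did not pass, with an adjusted p of 1.

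**Figure D5:**
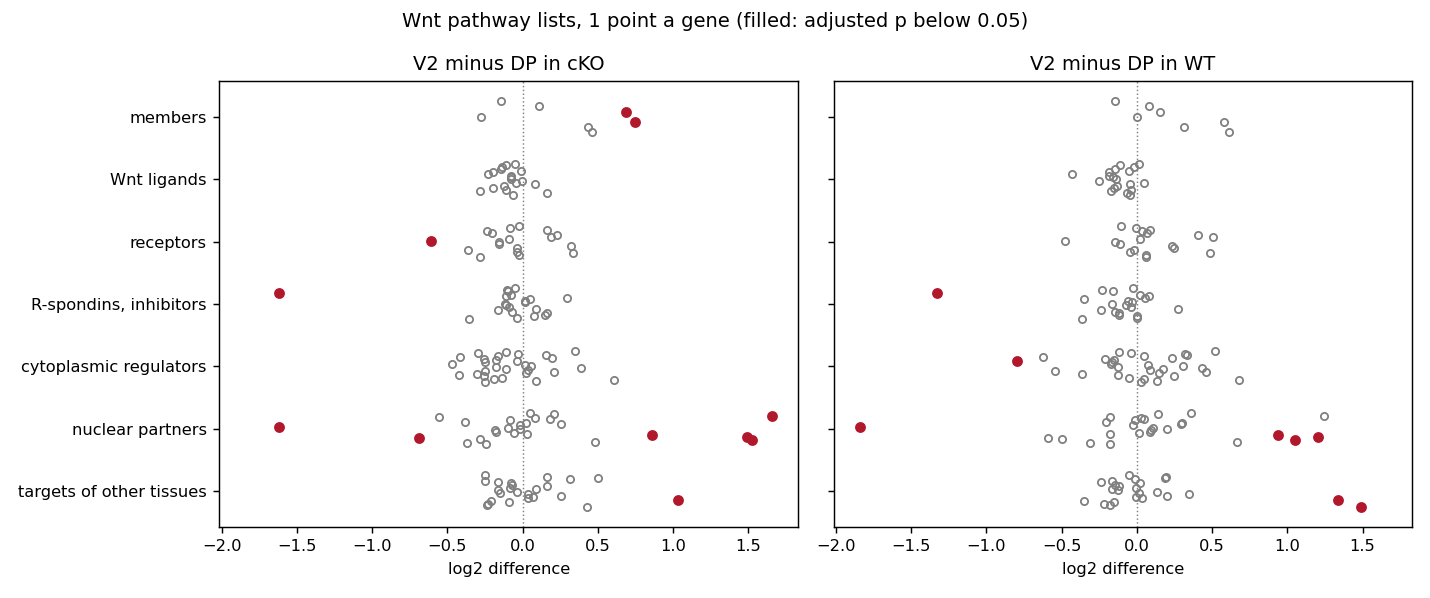
Log2 difference V2 minus DP (x axes) in cKO and in WT cells for the 7 members and for 6 lists of Wnt pathway genes (rows), 1 point a gene, with filled points where the adjusted p was below 0.05. In the knockout the filled points are 2 members, 1 gene in each of 3 lists and 6 of 26 nuclear partners, and in wild type they are 1 or 2 genes in each of 3 lists and 4 nuclear partners.

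In the list of thymocyte genes tied to TCF-1 or LEF-1, 23 of 24 were measured, and 9 were higher and 9 lower in V2 than in DP cells in each genotype. The list holds genes that define the populations, among them Rag1, Cd4 and Cd8a (lower) and Il7r, Sox13 and Maf (higher), and several were markers used above. Between cKO and WT the list had 0 calls. In V2 cells Sox13 (-1.04, SE 0.23, adjusted p = 0.265) and Id2 (0.81, SE 0.22, adjusted p = 0.539) did not pass. Maf did not pass there either (-1.14, SE 0.26, adjusted p = 0.269, limma). Among 25 alternative settings of the fit, Sox13 passed in 1 and Maf in 2. Against these population differences of up to -6.15 for Rag2 in wild type, that of Tcf7l2 in the knockout was 0.74.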

How the data were processed

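Gene expression was measured on 13 Affymetrix arrays. The deposited values are linear intensities. Per the submitters' processing notes the authors used Affymetrix Power Tools and RMA; the sources used here do not say whether all arrays were run together. RMA subtracts background and normalises probes between arrays, which lessens shifts shared by most genes; upper quartiles of the deposited values still ranged from 8.38 to 8.74 (log2). The number of arrays limits the precision, since there is no depth. Here log2 was taken of the deposited intensity. The platform annotation gave 1 symbol for 21425 of 24922 probe sets, several for 1399 and no entry for 2098; the probe set with the highest mean stood for a gene, which left 19752 genes.

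All 4 groups were fitted together with limma 3.58.1 in R 4.3.3 (lmFit, eBayes with an intensity trend), with a centred covariate for the V2 title style. P-values are two-sided, adjusted over all genes by Benjamini-Hochberg, with a threshold of 0.05. The fit leaves out 2 arrays with the other population's markers. The members and lists were chosen with earlier results of these data known. The text names all members, Sox4, markers, and, by smallest p, up to 3 genes per list and comparison; other called genes were named after their values were seen. On simulated data with 19752 genes, changes of 1 log2 unit were recovered for 82% of genes in V2 cKO against WT and 59% in DP. For V2 against DP the shares were 58% in cKO and 66% in WT. For the difference of the knockout's effect between V2 and DP the share was 29%. Each simulated comparison had independent noise, no title style effect, and 100 genes changed by 1 and 100 by 2 log2 units. The shares hold for that setting only. In the real V2 comparison of cKO and WT, a Sox13 difference of -1.04 did not pass. Replicate numbers were not used as pairs. Promoters came from RefSeq, with no genome sequence used. Figures were drawn with matplotlib 3.10.9.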

Additional observations from a re-analysis of the deposited data

Results flagged for a closer look

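Of 74 groups of values over 37 genes looked at, 12 held 1 array far from the others. The genes were the members, Sox4 and list genes already called between V2 and DP cells. The V2 WT groups as labelled included the array with DP markers, so no chance rate applies to this count. Sox4 on V2 cKO replicate 5 (V2imm) was at 9.60, above the other V2 cKO arrays at 8.07 to 8.23. Among the V2 WT arrays as labelled, replicate 5 (immV2) stood apart for 11 genes. It was high for Rag1 (13.02), Cd4 (12.65), Cd8a (12.94), Rag2 (11.17), Kremen1 (11.25), Bcl6 (10.90), Bcl2l1 (9.48) and Satb1 (13.11), and low for Il7r (5.96), Maf (6.97) and Sox13 (7.73). These are genes of the population markers or of lists that separate V2 from DP cells, and the array was left out of the comparisons. None of the 7 members was marked in this way. Ctnnb1 on V2 cKO replicate 4 (V2imm) was not marked, although it lay at 9.22, against 10.50 to 10.79 on the other V2 cKO arrays. The DP groups and the V2 WT arrays without replicate 5 (immV2) were too few for this rule.

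Maf, a γδ regulator, had cKO minus WT differences of opposite sign in V2 and DP cells, with the arrays of cKO and WT not overlapping in either. Over all genes, 3.45% had groups that did not overlap in V2 and 29.8% in DP, where each group had 2 arrays. The V2 difference was -1.14 (SE 0.26) and did not pass (adjusted p = 0.269, limma). The difference of the effect between V2 and DP was -1.86 (SE 0.42), and the test of that difference did not pass (adjusted p = 0.724, limma).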

How the results depend on the processing

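Over 798 alternative values of members, 768 stayed on their side of the threshold (57 of these, none of them called, had the other sign), 28 lost a call, 2 gained one and no called value turned its sign. The calls for Tcf7l2 and Axin2 between V2 and DP in the knockout (2 members) fell to 0 with 13 arrays, without the title style covariate, with that covariate coded 0 and 1, and with arrays centred on the median. They were 1 with quantile normalisation, log2(value + 50) or no intensity trend, and 0 to 1 with an array left out. In wild type 1 member was called in the average over genotypes and 0 to 1 with an array left out. Genes called for V2 minus DP in wild type (962) were 11 with 13 arrays, 594 without the covariate, 467 for immV2 arrays against DP, 2106 in the average and 477 to 1575 with an array left out. In the knockout (1076) they were 7, 637 and 480 to 1632 under the first, second and last of these. For cKO minus WT in V2 (0 genes) they were 11 with quantile normalisation, 8 with the filter on dim probe sets, 6 with robust moderation, 34 with the replicate block, 5 within V2imm, 9 within immV2 and 0 to 44 with an array left out. For DP (5 genes) they were 0 with 13 arrays or only DP arrays, 3 without the covariate, 9 with quantile normalisation, 10 with log2(value + 50), 8 with the replicate block and 0 to 14 with an array left out. The difference between populations (0 genes) had 1 with quantile normalisation and 0 to 4 with an array left out. The replicate block called no member. Deviations of same-numbered arrays from their group means correlated at 0.273 and -0.108 in V2imm, 0.179 in DP and 0.524 in immV2. After the title style as well, the values were -0.354, -0.223, 0.179 and -0.504. The first V2 values still hold any effect of the style, and fitting the style ties the deviations of V2 arrays to each other. The correlations therefore cannot decide if same-numbered arrays were pairs. The causes were not tested. The files carry no detection calls, so no background limit was set for dim members.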
